A study of Mus musculus with 105 samples.

Results

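Ribosome footprints were compared between metaphase II (MII) mouse oocytes labelled Btg4 KO (3 libraries) and MII oocytes labelled Btg4 Het (3 libraries), the heterozygous control. These are 6 of the 105 samples that the labels describe, a series on translation, mRNA and poly(A) tails in mouse oocytes and embryos. Genes were included where the mean footprint level over the 6 libraries was at least 1 FPKM (fragments per kilobase of transcript, scaled to the library's mapped total), which left 8526 of 20756 genes. At the limit, Dtx3 had a mean of 0.9997 FPKM and stayed out, and Acot2 had a mean of 1.0002 FPKM and was included. The protocols in the labels give the donors of the oocytes as C57BL/6 females of 8 or 5 weeks given PMSG (5 IU) and hCG (5 IU), the hormones that induce follicle growth and ovulation. Lysates held cycloheximide (100 µg/ml), which holds ribosomes in place, and were digested with RNase I. How the Btg4 allele was made, which exons it lacks, whether a library pools oocytes of several females, and how many oocytes a library holds were not stated in the labels.

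BTG4 is an adaptor of the CCR4-NOT complex, the main deadenylase of the cell. It binds the catalytic subunits CNOT7 and CNOT8 and brings them to messages whose poly(A) tails are then shortened. In oocytes that step starts the removal of many maternal messages during meiotic maturation, and females without Btg4 are infertile. A footprint is the piece of message that a ribosome covers, so the footprint level of a gene depends on how much message there is and on how many ribosomes sit on it. Smart-seq2 libraries, which measure polyadenylated mRNA as full-length cDNA, of the same genotypes (2 Het, 2 KO) were set beside the footprints, with genes tested where their mean was at least 1 FPKM.

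Between 6085 and 9002 genes were above 0 in a footprint library. Read counts were not used here, but the most frequent ratio of low values between libraries gives their relative depth: with Het library 1 at 1, Het libraries 2 and 3 had 0.509 and 0.389 and the KO libraries 0.552, 0.780 and 0.813. The deepest library was thus a Het library, and the shallowest 2 were Het libraries as well. Libraries of 1 genotype correlated at 0.699 to 0.815 across genes on the log2(FPKM + 1) scale, and libraries of different genotype at 0.585 to 0.796, so that Het library 2 and KO library 1 were the least alike pair. Of the oocyte markers, 10 of 10 passed the filter, with Oosp1 between 12913 and 24737 FPKM and Gdf9 between 2194 and 8337 FPKM. Of 21 follicle cell markers 14 were listed at 0 in all 6 libraries, among them Fshr, Amh and Lhcgr. Cyp19a1, in contrast, was at 53.0, 60.6 and 12.4 FPKM in Het and 29.7, 59.3 and 32.0 FPKM in KO, and Nr5a2 was above 0 in all 6 as well. The summed level of the 21 was 415, 309 and 246 FPKM in Het and 409, 577 and 483 in KO, most of it Serpine2. Of 16 blood and immune markers 13 were at 0 throughout, and their summed level was 1.62, 20.4 and 0 FPKM in Het and 2.94, 6.23 and 6.23 in KO. The part of these few markers in the results was not tested.

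Btg4 itself fell in footprints but was not absent. Its level was 7009, 6346 and 6134 FPKM in Het libraries 1 to 3 and 1148, 971 and 907 FPKM in KO libraries 1 to 3, so the groups lay far apart (log2 change -2.69 ± 0.23 SE, adjusted p = 0.00654). Here and below log2 changes are on the log2(FPKM + 1) scale, which understates low genes, and p are from limma's moderated linear model, adjusted over all genes by Benjamini and Hochberg. Btg4 mRNA was at 3293 and 4774 FPKM in Het and 1754 and 2345 FPKM in KO, a difference that did not pass the test (log2 change -0.97, adjusted p = 0.0889). The footprint change relative to mRNA missed the threshold as well (interaction adjusted p = 0.0672) and passed it (0.0494) in a fit with the library number, 1 to 3 in both genotypes, as a block. Since the deleted exons are not known, footprints on the rest of the message may remain countable, and the level checks the labels only.

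Far more genes passed the test for a gain of footprints than for a loss. Of the 8526 genes 274 rose in KO, which is 3.21% of those tested, and 28 fell, which is 0.328% (limma, adjusted p below 0.05). Each of these 302 genes had all 3 KO libraries on one side of all 3 Het libraries, a pattern seen in 16.8% of all genes for higher and in 7.69% for lower KO values. Against Het library 1 alone, the deepest, the counts over all 8526 genes were near equal. All 3 KO libraries lay above it in 2285 genes and below it in 2270. In all 3 Het libraries 654 genes were at 0, and in all 3 KO libraries 294. The part of library depth in the imbalance was not tested. The genes that rose had a median log2 change of 3.64 (1.5 to 7.64), and those that fell one of -2.69 (-7.24 to -1.57), where the median of all genes was 0.27. These sizes include genes at 0 in one genotype, for which they rest on the pseudocount of 1 FPKM. Together the 274 genes held 1.22%, 1.30% and 1.21% of all FPKM in the Het libraries and 7.83%, 9.79% and 8.17% in the KO libraries, a description of genes chosen for that difference.

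**Figure D1:**
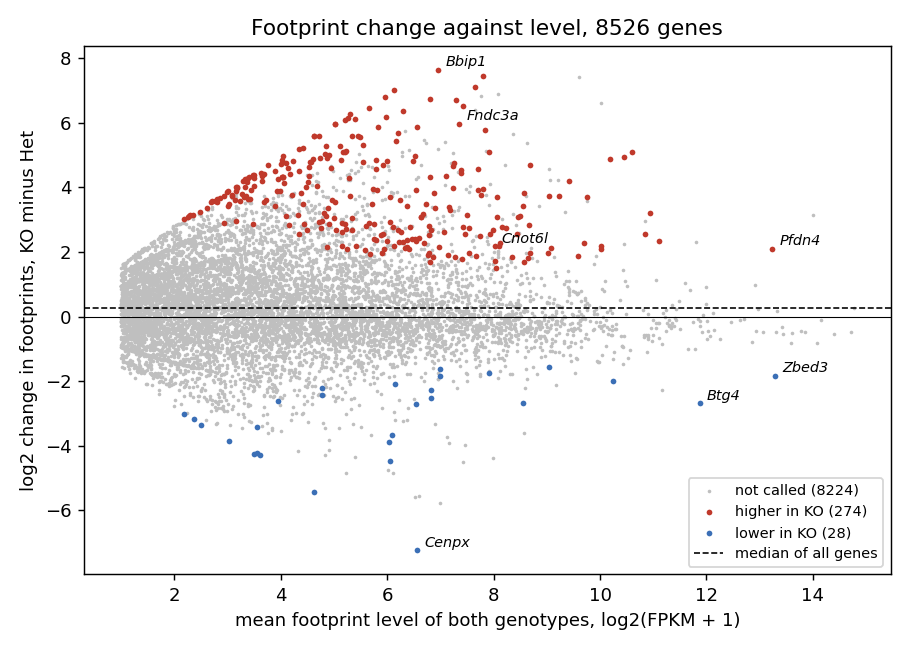
Log2 change in footprints (KO minus Het, vertical) against the mean footprint level of both genotypes (log2(FPKM + 1), horizontal) for 8526 genes, with the 274 genes that rose in red, the 28 that fell in blue and the median of all genes (0.27) dashed. Most called genes lie above 0, and the straight upper edge at low levels is where genes are at 0 in Het.

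FPKM express shares of a library, and the labels name no spike-in, so fewer oocytes in a library and less ribosome-bound message per oocyte cannot be told apart. The median change of all genes, 0.27 as deposited, was -0.10 after median scaling and -0.14 after quantile normalization, and the calls then numbered 81 higher and 18 lower, and 149 higher and 24 lower. The medians of gene lists move with it and are read against that of all genes. The calls needed all 3 KO libraries: without KO library 1, 2 or 3 limma called 0 genes in either direction, with smallest adjusted p of 0.0531, 0.0654 and 0.0662 and 1200, 1315 and 1199 genes at an unadjusted p below 0.05. Without Het library 1, 2 or 3 they were 260 higher and 14 lower, 144 and 10, and 82 and 4. The labels name no separate animals, so p-values measure the spread between these libraries, which may be technical.

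The genes with the largest rises went from no or few FPKM in Het to clear levels in every KO library. Bbip1, a subunit of the BBSome that carries cargo to cilia, was listed at 0 in all Het libraries and at 73.8, 418 and 251 FPKM in KO (adjusted p = 0.00669). Sptssb, a small subunit of the serine palmitoyltransferase that starts sphingolipid synthesis, was at 0 in Het and at 98.5, 214 and 100.3 FPKM in KO (adjusted p = 0.00654). Tctex1d2, a dynein light chain, was at 0 in Het and at 89.0, 203 and 73.9 FPKM in KO (adjusted p = 0.00654). In these genes the KO values themselves spread by more than 2-fold, and KO library 2 was the highest. Of the 274 genes 52 were listed at 0 in all 3 Het libraries, Het library 1 among them, the deepest of the 6, and 83 had a Het mean below 1 FPKM and so passed the filter through their KO values. For genes at 0 in all Het libraries no size of the change is given. KO library 2 was the highest KO library in 185 of the 274 genes, against 45 for library 1 and 44 for library 3. That count was not made over all genes, so whether it is particular to the 274 is not known.

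Enzymes, transport and transcription factors were among the other leading rises. Paics, a bifunctional enzyme of purine synthesis, was at 0.587, 0 and 0 FPKM in Het and 82.2, 99.2 and 64.0 FPKM in KO (log2 change 6.13 ± 0.53 SE, adjusted p = 0.00654). Atp1b1, the beta subunit of the sodium pump, was at 0 in Het and at 80.3, 99.9 and 43.6 FPKM in KO (adjusted p = 0.00654). Bet1, a SNARE of transport between endoplasmic reticulum and Golgi, was at 8.20, 0 and 0 FPKM in Het and 208, 231 and 222 FPKM in KO (log2 change 6.72 ± 0.90 SE, adjusted p = 0.0181). Bet1 had near equal KO values, and only Het library 1 held reads for it. Mnat1, the assembly factor of the CDK-activating kinase, was at 3.47, 0 and 0 FPKM in Het and 88.1, 151 and 128 FPKM in KO (log2 change 6.19 ± 0.72 SE, adjusted p = 0.0140). Srfbp1, a partner of serum response factor, was at 0 in Het and at 69.2, 95.0 and 67.7 FPKM in KO (adjusted p = 0.00654). Ccdc115, an assembly factor of the proton pump V-ATPase, was at 22.3, 0 and 0 FPKM in Het and 377, 252 and 284 FPKM in KO (log2 change 6.72 ± 1.22 SE, adjusted p = 0.0360). Only Het library 1 held reads for Ccdc115 and Mnat1 too. Cldnd1, a claudin-domain protein, was at 5.15, 0 and 0 FPKM in Het and 102, 158 and 203 FPKM in KO (adjusted p = 0.0173). Dph3, needed for diphthamide synthesis on elongation factor 2, was at 0 in Het and at 39.3, 89.6 and 86.0 FPKM in KO (adjusted p = 0.00669). Neither had overlapping groups. Thap1, a zinc-finger transcription factor, was at 5.87, 5.77 and 0 FPKM in Het and 298, 444 and 278 FPKM in KO (adjusted p = 0.0150).

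Some genes that rose were already strongly translated. Pfdn4, a subunit of the prefoldin chaperone, had the highest KO level of all called genes, at 4231, 3323 and 3332 FPKM in Het and 14469.5, 18228 and 14110.2 FPKM in KO (log2 change 2.10 ± 0.24 SE, adjusted p = 0.0136). Eloc, the elongin C subunit of ubiquitin ligases, was at 758, 491 and 131 FPKM in Het and 3294, 4386 and 2747 FPKM in KO (log2 change 3.22 ± 0.64 SE, adjusted p = 0.0479). Neither had overlapping groups, and Eloc had the wider Het spread, with library 3 lowest.

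**Figure D2:**
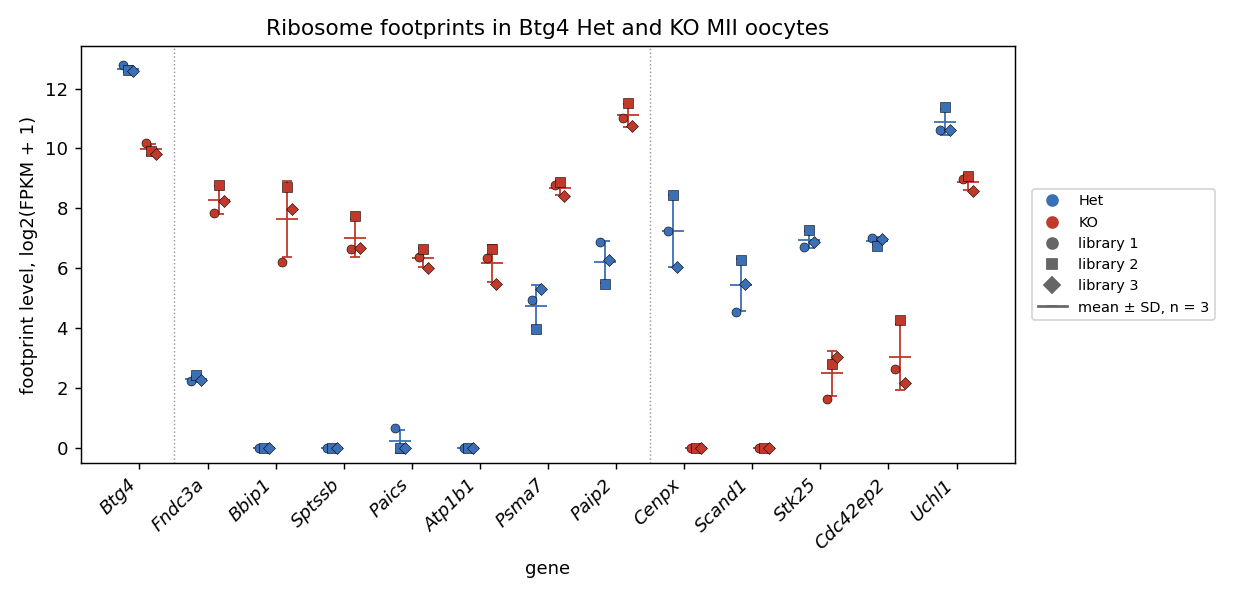
Footprint level (log2(FPKM + 1), vertical) of 13 genes in the 3 Het (blue) and 3 KO (red) libraries, with the mean and SD of each group (n = 3). Btg4 stands first, then 7 genes that rose and 5 that fell, and in no gene do the points of the groups overlap.

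The 28 genes that fell included several that disappeared from the KO footprints. Cenpx, a histone-fold protein of the centromere and of the Fanconi anemia pathway, was at 150.3, 345 and 64.4 FPKM in Het and listed at 0 in all KO libraries (adjusted p = 0.00680). Scand1, a SCAN-domain protein, was at 22.4, 77.0 and 43.2 FPKM in Het and at 0 in KO (adjusted p = 0.0140). In all, 9 of the 28 were at 0 in every KO library. They also included Rpp25l, a relative of an RNase P subunit (13.1, 43.0 and 11.3 FPKM in Het, adjusted p = 0.0294), and Nfil3, a basic leucine zipper repressor (8.51, 20.9 and 32.8 FPKM in Het, adjusted p = 0.0274). None of the 4 had a Het library at 0. Stk25, a kinase of the germinal center kinase family, stayed detectable, at 104, 154 and 117 FPKM in Het and 2.12, 6.00 and 7.2 FPKM in KO (log2 change -4.47 ± 0.52 SE, adjusted p = 0.0139). Cdc42ep2, an effector of the small GTPase CDC42, was at 129, 107 and 125 FPKM in Het and 5.18, 18.3 and 3.52 FPKM in KO (log2 change -3.89 ± 0.61 SE, adjusted p = 0.0255). Ccno, cyclin O, was at 125, 232 and 125 FPKM in Het and 24.0, 30.2 and 16.3 FPKM in KO (log2 change -2.70 ± 0.44 SE, adjusted p = 0.0269). In Stk25, Cdc42ep2 and Ccno each Het value was above 100 FPKM, and the KO libraries, deeper than Het libraries 2 and 3, held less.

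Part of the falls passed only without a term for the library number, which libraries of the 2 genotypes share. With that number as a block, Gfer, a mitochondrial sulfhydryl oxidase (22.4, 12.6 and 8.25 FPKM in Het, 0 in all KO libraries), went from an adjusted p of 0.0299 to 0.0576. Akt1s1, an inhibitor of mTORC1 (6.93, 21.7 and 36.4 FPKM in Het, 0 in KO), went from 0.0343 to 0.0545. Plekhg3, a guanine nucleotide exchange factor (12.5, 27.2 and 21.2 FPKM in Het, 0, 2.11 and 1.22 FPKM in KO), went from 0.0488 to 0.0545. Lsp1, an actin-binding protein, went from 0.0315 to 0.0690, Recql5, a DNA helicase, from 0.0447 to 0.0830, and Trmt12, a tRNA-modifying enzyme, from 0.0479 to 0.0898. The Het levels of the last 3 were between 5.54 and 11.7 FPKM and their KO levels 0. Of the 274 rises 72, and of the 28 falls 12, were not called with the block, which called 241 genes higher and 26 lower in all.

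Footprints on the deadenylation machinery rose in part. Of 18 deadenylase genes 3 rose (16.7%) and 0 fell, against 3.21% and 0.328% of all genes, with a median log2 change of 0.57 against 0.27. The 3 rises became 0 under median scaling and 2 under quantile normalization. All 3 carry CCR4-NOT gene names, and only Cnot6l of them is catalytic in deadenylation. Cnot6l, a catalytic subunit with a known role in oocyte maturation, was at 114, 80.7 and 83.5 FPKM in Het and 364, 533 and 377 FPKM in KO (log2 change 2.18 ± 0.32 SE, adjusted p = 0.0227). Cnot4, a ubiquitin ligase, was at 8.31, 4.90 and 10.7 FPKM in Het and 60.6, 72.5 and 81.0 FPKM in KO (log2 change 3.06 ± 0.45 SE, adjusted p = 0.0224). Cnot3, a structural subunit, was at 53.4, 59.1 and 39.5 FPKM in Het and 178, 167 and 199 FPKM in KO (log2 change 1.84 ± 0.33 SE, adjusted p = 0.0360, and 0.05001 with the library number as a block, which ends the call). The mRNA of all 3 did not pass the test (log2 change -0.34, -0.04 and 0.15).

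The catalytic subunits that BTG4 binds did not pass the test. Cnot7 was at 2826, 1730.2 and 2144 FPKM in Het and 1471, 2301 and 1479.8 FPKM in KO (log2 change -0.35 ± 0.32 SE, adjusted p = 0.614). Cnot8 was at 923, 594 and 531 FPKM in Het and 396, 452 and 395 FPKM in KO (log2 change -0.68 ± 0.31 SE, adjusted p = 0.305), with no overlap of the groups. Both catalytic subunits thus stayed well translated in each library of both genotypes. Pan2, the catalytic subunit of the other cytoplasmic deadenylase, was at 342, 437 and 227 FPKM in Het and 227, 254 and 199 FPKM in KO (adjusted p = 0.493). The remaining 12 genes did not pass either, among them the scaffold Cnot1 (adjusted p = 0.614).

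Of 17 adaptors and RNA-binding proteins that recruit deadenylases 3 rose (17.6%) and 1 fell, against 3.21% and 0.328% of all genes (median log2 change 0.50). The 1 that fell was Btg4, the removed gene, so that fall is no result about the list. The 3 rises became 1 under median scaling and 3 under quantile normalization, and 2 genes fell under either. The 3 that rose included 2 relatives of BTG4 itself. Btg2, of the same family, was listed at 0 in all Het libraries and at 41.8, 159.7 and 96.6 FPKM in KO (adjusted p = 0.00793). Tob2, which ties CCR4-NOT to poly(A)-binding protein, was at 1.51, 0 and 3.89 FPKM in Het and 54.8, 75.5 and 68.8 FPKM in KO (log2 change 4.86 ± 0.69 SE, adjusted p = 0.0202). Pabpn1l, an oocyte poly(A)-binding protein and reported partner of BTG4, was at 519, 949.5 and 273 FPKM in Het and 2376, 4194 and 2725 FPKM in KO (log2 change 2.55 ± 0.49 SE, adjusted p = 0.0447). At their KO levels Btg2 and Tob2 still stood below Btg4, which kept 1148, 971 and 907 FPKM in KO. Nanos2, an RNA-binding partner of CCR4-NOT in germ cells, was at 249.5, 215 and 125 FPKM in Het and 55.2, 54.6 and 37.5 FPKM in KO and missed the threshold (log2 change -1.94 ± 0.40 SE, adjusted p = 0.0517), which it passed with the block (adjusted p = 0.0376). The family members Btg1 and Tob1 did not pass (adjusted p = 0.898 and 0.185), and Btg1 was at 0 in KO library 2.

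**Figure D3:**
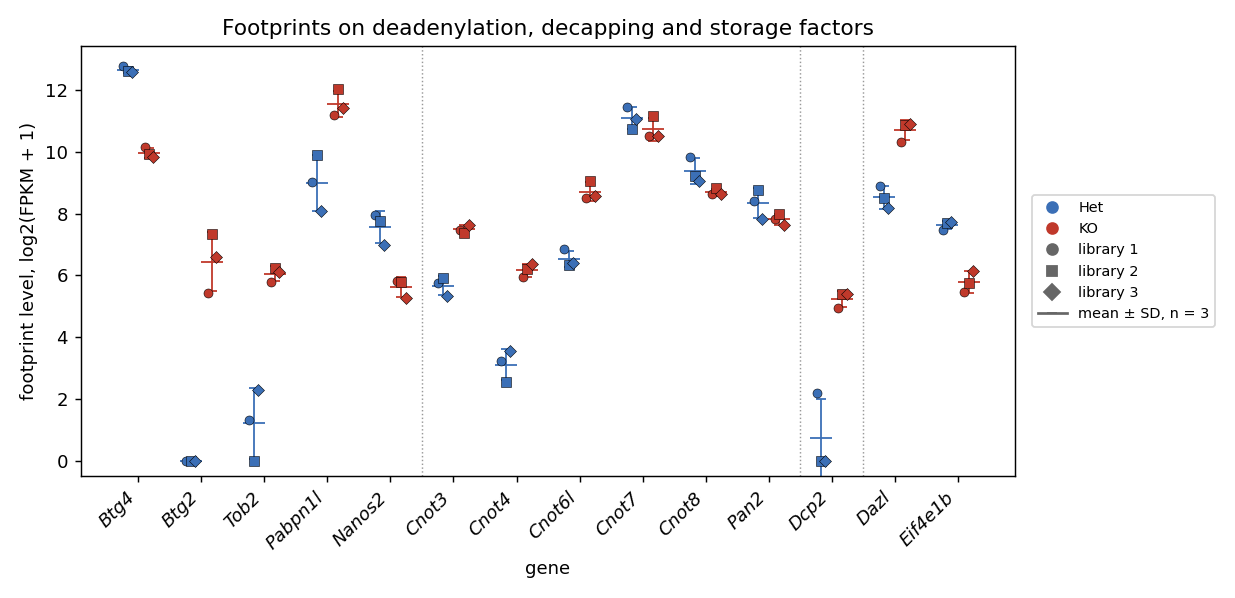
Footprint level (log2(FPKM + 1), vertical) of 14 genes that act in deadenylation, decapping and storage, in the 3 Het (blue) and 3 KO (red) libraries, with the mean and SD of each group (n = 3). Adaptors stand left, genes of the deadenylase list in the middle and Dcp2, Dazl and Eif4e1b right, and Btg2 lies at 0 in every Het library and above 5 in every KO library.

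Decapping, storage and polyadenylation factors held few calls. Of 26 decapping and decay genes 1 rose (3.85%, near the 3.21% of all genes), Dcp2, the catalytic subunit of the decapping enzyme, at 3.55, 0 and 0 FPKM in Het and 30.0, 40.9 and 40.8 FPKM in KO (log2 change 4.51 ± 0.76 SE, adjusted p = 0.0299). The list's median log2 change was 0.27, as in all genes. Of 30 storage and polyadenylation genes 1 rose (3.33%) and 1 fell (median 0.14), against 3.21% and 0.328% of all genes. Dazl, a germ-cell activator of translation whose synthesis goes up in maturation, was at 481, 366 and 287 FPKM in Het and 1289.5, 1882 and 1914 FPKM in KO (log2 change 2.17 ± 0.32 SE, adjusted p = 0.0223). Eif4e1b, an oocyte cap-binding protein, was at 177, 205 and 214 FPKM in Het and 43.0, 53.1 and 70.1 FPKM in KO (log2 change -1.85 ± 0.34 SE, adjusted p = 0.0379). The 2 moved in opposite directions with non-overlapping groups, while their mRNA did not pass the test (adjusted p = 0.425 and 0.956). Under median scaling none of the 3 passed, with adjusted p of 0.0632 for Dcp2, 0.100 for Dazl and 0.0657 for Eif4e1b.

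Of 32 messages known to be recruited to ribosomes during maturation 4 rose (Dazl, Dcp2, Cnot6l and Pabpn1l, 12.5% against 3.21% of all genes) and 2 fell (Btg4 and Zbed3, against 0.328% of all genes). Btg4 is the removed gene, so its fall was set by the design and is no result about the list. Under median scaling 0 rose and Btg4 alone fell, and under quantile normalization 4 rose and 1 fell. The median log2 change was -0.31 against 0.27 for all genes. The summed level of the 32 genes was 163203, 132282 and 119040.0 FPKM in Het and 91799, 107449 and 97011 FPKM in KO. The 3 KO sums lay below the 3 Het sums, but they include Btg4 and Zbed3, and without these 2 genes the groups overlap. Zbed3, a component tied to the subcortical maternal complex, was at 11380.4, 25248 and 10822 FPKM in Het and 3999, 3651 and 4649 FPKM in KO (log2 change -1.84 ± 0.37 SE, adjusted p = 0.0494, 0.0555 with the block, which ends the call). Its Het library 2 was the highest of the 6.

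Calls among oocyte growth and maternal effect genes were few. Of 21 zona pellucida, secreted factor and oocyte transcription factor genes 1 rose (4.76%, against 3.21% of all genes). It was Bmp15, a growth factor the oocyte secretes to its follicle cells, at 81.4, 40.6 and 83.1 FPKM in Het and 494, 288 and 533 FPKM in KO (log2 change 2.68 ± 0.43 SE, adjusted p = 0.0269). Of 19 maternal effect genes 1 rose (5.26%) and 2 fell, against 3.21% and 0.328% of all genes, Zbed3 being 1 of the 2. Under median scaling 0 rose and 1 fell, and Bmp15 did not pass either. Zfp57, which guards imprinted methylation in the early embryo, was at 364, 435 and 372 FPKM in Het and 1429, 2024 and 1583 FPKM in KO (log2 change 2.09 ± 0.27 SE, adjusted p = 0.0173). Uchl1, a ubiquitin hydrolase abundant in oocytes, was at 1582, 2656 and 1586 FPKM in Het and 507, 542 and 378 FPKM in KO (log2 change -2.0 ± 0.32 SE, adjusted p = 0.0269). The median log2 change of these lists was 0.10 and 0.48.

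Several proteasome subunits rose. Of 39 proteasome genes 6 rose (15.4%) and 0 fell, against 3.21% and 0.328% of all genes. The median log2 change was 0.93, against 0.27 for all genes. The 6 rises became 2 under median scaling and 4 under quantile normalization. Psmc6, an ATPase of the regulatory particle, was at 17.0, 7.69 and 33.6 FPKM in Het and 269, 363 and 215 FPKM in KO (log2 change 3.98 ± 0.56 SE, adjusted p = 0.0202). Psma7, a subunit of the core's outer ring, was at 29.5, 14.9 and 38.9 FPKM in Het and 436, 475 and 341 FPKM in KO (log2 change 3.95 ± 0.43 SE, adjusted p = 0.0116). Psmb1, of the inner ring, was at 18.2, 4.77 and 12.5 FPKM in Het and 202, 156 and 163 FPKM in KO (log2 change 3.92 ± 0.53 SE, adjusted p = 0.0181). Psmd12, of the regulatory lid, was at 2.16, 4.24 and 8.33 FPKM in Het and 56.7, 99.6 and 59.8 FPKM in KO (log2 change 3.72 ± 0.57 SE, adjusted p = 0.0238). These 4 come from different subassemblies of the complex and none had overlapping groups.

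Of 48 large and 32 small cytosolic ribosomal protein genes none passed in either direction, although their medians were 0.99 and 1.31 on the log2 scale. At an unadjusted p below 0.05 there were 2 and 3 (4.17% and 9.38%), below the 18.2% of all genes. The smallest p belonged to Rpl18 in the large subunit, at 3.47, 6.82 and 0 FPKM in Het and 87.0, 4.45 and 40.6 FPKM in KO (adjusted p = 0.253), and to Rps3 in the small one, at 13.1, 9.38 and 6.14 FPKM in Het and 143, 55.0 and 23.5 FPKM in KO (adjusted p = 0.124). In Rps3 the groups did not overlap, but the KO values ran from 23.5 to 143 FPKM, and KO library 1 was highest in both genes. Ribosomal protein genes have many processed pseudogenes, and the sources used here do not say how reads shared with them were assigned.

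Of 69 mitochondrial ribosomal protein genes 4 rose (5.80%) and 0 fell (median 0.29), against 3.21% and 0.328% of all genes (median 0.27). The 4 rises became 2 under median scaling and 3 under quantile normalization. Mrps31 was at 5.30, 0 and 0 FPKM in Het and 81.6, 146 and 103 FPKM in KO (adjusted p = 0.0202), and Mrpl39 at 10.9, 3.07 and 4.02 FPKM in Het and 73.6, 130.1 and 92.2 FPKM in KO (adjusted p = 0.0202). Mrpl32 was at 24.5, 20.6 and 18.0 FPKM in Het and 155, 121 and 170.1 FPKM in KO (adjusted p = 0.0176), and Mrpl9 at 12.7, 16.7 and 16.4 FPKM in Het and 80.7, 139 and 54.8 FPKM in KO (adjusted p = 0.0447). The smaller subunit gave 1 of these genes and the larger one 3. Of 72 nuclear-encoded respiratory chain genes 1 rose (1.39%, against 3.21% of all genes). It was Sdhc, a membrane anchor of succinate dehydrogenase, at 53.5, 24.3 and 10.6 FPKM in Het and 351, 517 and 299 FPKM in KO (log2 change 3.91 ± 0.60 SE, adjusted p = 0.0241). The median of that list was -0.30, below the 0.27 of all genes.

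Of 50 translation factor genes 3 rose (6.00%) and 1 fell (median 0.03), against 3.21% and 0.328% of all genes. The 3 rises became 2 under median scaling and 3 under quantile normalization, and 1 gene fell under either. Eif3e, a subunit of initiation factor 3, was at 4.44, 0 and 0 FPKM in Het and 117, 55.5 and 86.8 FPKM in KO (log2 change 5.57 ± 0.80 SE, adjusted p = 0.0212). Etf1, the release factor that reads stop codons, was at 0 in Het and at 28.8, 16.0 and 16.8 FPKM in KO (adjusted p = 0.0183). Eif6, which keeps large ribosomal subunits from joining small ones, fell from 87.3, 129.8 and 158 FPKM in Het to 17.1, 6.05 and 5.81 FPKM in KO (log2 change -3.68 ± 0.54 SE, adjusted p = 0.0217). Of 19 tRNA synthetase genes and their scaffolds 3 rose (15.8%, against 3.21% of all genes, median 0.24), which became 0 under median scaling and 1 under quantile normalization. They were Nars for asparagine (24.8, 28.6 and 11.0 FPKM in Het, 93.8, 177 and 121 FPKM in KO, adjusted p = 0.0437), Rars for arginine (31.9, 18.1 and 12.8 FPKM in Het, 109.8, 128 and 77.6 FPKM in KO, adjusted p = 0.0487), and the scaffold Eef1e1, which both lists hold. Eef1e1 was at 0, 0 and 20.2 FPKM in Het and 256, 503 and 420.3 FPKM in KO (adjusted p = 0.0299), and only Het library 3 held Het reads.

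On the lists of chromosome segregation and meiotic cell cycle genes all calls were rises. Of 37 genes on a list of kinetochore and centromere proteins 4 rose (10.8%, against 3.21% of all genes) and 0 fell, with a median of 0.39, and the 4 became 2 under median scaling and 3 under quantile normalization. Outside that list, Cenpx fell, as did Cdca5, the cohesin protector sororin, named after its values were seen (159.9, 214 and 203 FPKM in Het, 30.9, 38.3 and 28.9 FPKM in KO, adjusted p = 0.0181). Cenpq, of the inner kinetochore, was at 2.10, 4.09 and 0 FPKM in Het and 478, 496 and 354 FPKM in KO (log2 change 7.45 ± 0.65 SE, adjusted p = 0.00654). Cenpk, also of the inner kinetochore, was at 7.03, 0 and 0 FPKM in Het and 63.7, 94.6 and 49.7 FPKM in KO (log2 change 5.08 ± 0.91 SE, adjusted p = 0.0351). Ska3, of the outer microtubule-binding complex, was at 9.77, 7.2 and 3.14 FPKM in Het and 50.9, 45.4 and 57.8 FPKM in KO (log2 change 2.87 ± 0.52 SE, adjusted p = 0.0360, 0.0536 with the block, which ends the call). Of 37 meiotic cell cycle genes 1 rose (2.70%, against 3.21% of all genes), while the list's median was -0.29. It was Ccnb3, a cyclin needed for the first meiotic anaphase, at 1.58, 3.10 and 2.44 FPKM in Het and 47.5, 47.0 and 21.0 FPKM in KO (log2 change 3.49 ± 0.57 SE, adjusted p = 0.0274). Its adjusted p was 0.0742 under median scaling and 0.0751 under quantile normalization, which end the call. Of 28 chromatin genes none passed, and 5 (17.9%) had an unadjusted p below 0.05, close to the 18.2% of all genes. The smallest p was that of the histone methyltransferase Setdb1, at 22.0, 24.6 and 20.9 FPKM in Het and 54.3, 100.2 and 86.2 FPKM in KO (adjusted p = 0.0701). Of 5 zygotic activation genes tested none passed, and 1 had an unadjusted p below 0.05, the arginase Arg2, at 21.9, 31.6 and 37.6 FPKM in Het and 13.3, 3.75 and 7.2 FPKM in KO (adjusted p = 0.141).

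The mRNA libraries, which share no library with the footprints, were set beside these calls. In mRNA 1677 of 8865 genes rose (18.9%) and 55 fell (0.62%), a split of 96.8% higher among the calls that became 58.8% after median scaling (1051 higher, 735 lower), when the median change of all genes went from 0.14 to -0.22. With the library number as a block, which pairs only 2 libraries a genotype, 3033 genes rose and 1553 fell. The near absence of mRNA falls thus depends on the fit. Calls in mRNA, and their absence, are given here and below from the fit without the block. Of the 274 genes that rose in footprints 270 were tested in mRNA, and 100 of them (37.0%) rose there too and 0 fell, where 18.5% of the 7382 genes tested in both assays rose in mRNA. After median scaling of the mRNA 62 of the 270 rose (23.0%, against 11.5%) and 10 fell (3.70%, against 9.41%). Read from the other side, the 100 genes are 7.33% of the 1365 mRNA rises that were tested in footprints. The 270 genes had a median mRNA log2 change of 0.73, where the 7382 genes had 0.07. Across those 7382 genes the footprint and mRNA changes correlated weakly (Pearson r = 0.203, Spearman correlation 0.193, a description across genes that share libraries).

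Among genes that rose in both readouts Paip2 had changes of like size, while other genes given here did not. Paip2, which pulls poly(A)-binding protein off messages, was at 118, 43.4 and 75.7 FPKM in Het footprints and 2059.9, 2951 and 1738 FPKM in KO footprints (log2 change 4.89 ± 0.43 SE, adjusted p = 0.00654). Its mRNA was at 26.2 and 13.7 FPKM in Het and 552 and 690.2 FPKM in KO (log2 change 4.95, adjusted p = 0.000283), so the changes were near equal. Psmb1 mRNA was at 3.45 and 7.63 FPKM in Het and 241 and 356 FPKM in KO (log2 change 5.57, adjusted p = 0.000281), where its footprint change was 3.92. Cenpq mRNA was at 6.78 and 11.3 FPKM in Het and 74.1 and 122 FPKM in KO (log2 change 3.30, adjusted p = 0.00115), where its footprint change was 7.45. Slirp, an RNA-binding protein of mitochondria, was at 0 in all Het footprint libraries and 50.3, 35.6 and 56.9 FPKM in KO, with mRNA at 3.92 and 1.75 FPKM in Het and 43.3 and 38.0 FPKM in KO (mRNA adjusted p = 0.000969). Cetn2, a centrin of centrioles, was at 0, 15.7 and 0 FPKM in Het footprints and 181, 159 and 78.8 FPKM in KO, with mRNA at 6.39 and 5.79 FPKM in Het and 85.3 and 143 FPKM in KO (mRNA adjusted p = 0.000573). Over the 100 genes the median log2 change was 3.97 in footprints and 1.92 in mRNA.

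In the other 170 genes that rose in footprints the mRNA did not pass the test, with a median mRNA log2 change of 0.15 and a median footprint change of 3.42. Whether footprints changed differently from mRNA was tested with an interaction term between assay and genotype, fitted to the 10 footprint and mRNA libraries together. In 63 of 7382 genes (0.853%) footprints rose relative to mRNA, and in 33 (0.447%) they fell relative to it. With the library number as a block these were 27 and 22, and without footprint Het library 1 they were 156 and 47, while without KO footprint library 1, 2 or 3 they were 34 and 33, 28 and 21, and 28 and 18. Without any 1 of the 4 mRNA libraries limma called 0 and 0, with 614 to 714 genes at an unadjusted p below 0.05. All 63 were among the genes that rose in footprints, 57 with no call in mRNA and 6 with a rise there.

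**Figure D4:**
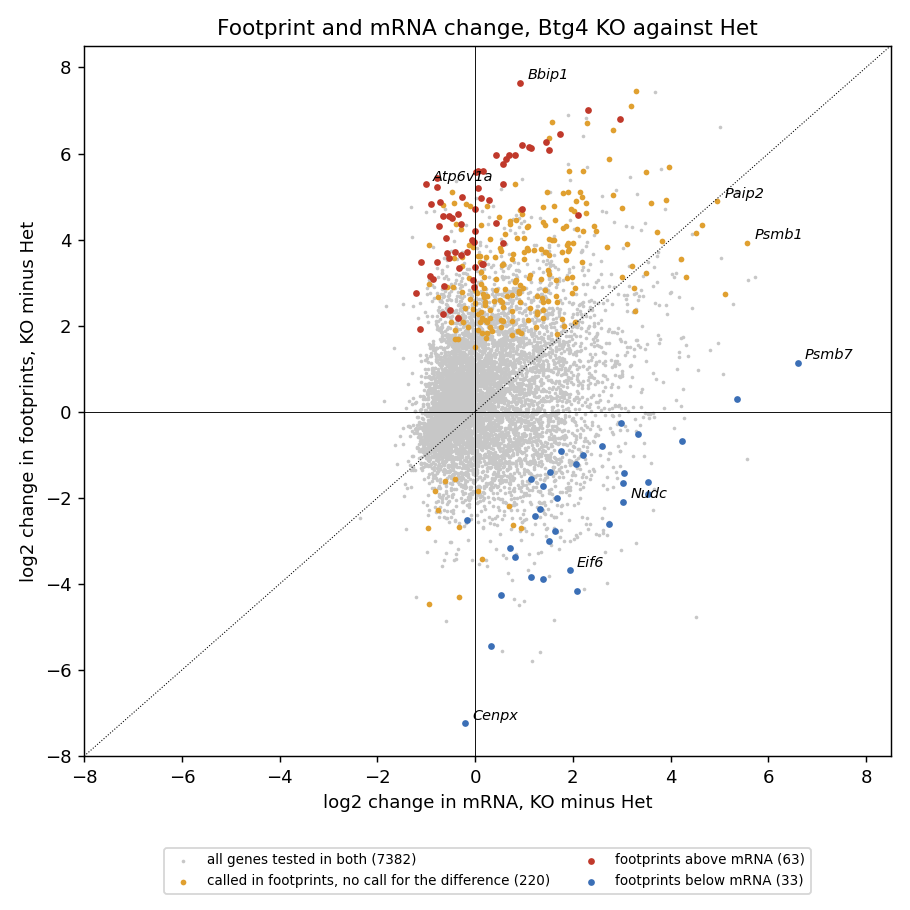
Log2 change in footprints (vertical) against log2 change in mRNA (horizontal), KO minus Het, for 7382 genes tested in both assays, with equal change on the dotted line. The 63 genes with footprints above mRNA (red) lie high and mostly near an mRNA change of 0, and the 33 with footprints below mRNA (blue) lie low and mostly to the right, while genes called in footprints with no call for this difference are orange.

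Among the 63, several had mRNA levels that overlapped or nearly met between the genotypes. Fndc3a, a membrane protein with fibronectin type III domains, had mRNA at 42.1 and 26.7 FPKM in Het and 58.3 and 35.2 FPKM in KO, and footprints at 3.71, 4.38 and 3.82 FPKM in Het and 227, 439 and 300.5 FPKM in KO (interaction log2 change 5.55 ± 0.60 SE, adjusted p = 0.0144). Its Het footprints were low in all 3 libraries and close to each other. Srp19, a subunit of the signal recognition particle, had mRNA at 64.5 and 76.5 FPKM in Het and 66.4 and 79.5 FPKM in KO, and footprints at 0 in Het and 39.5, 48.9 and 53.7 FPKM in KO (adjusted p = 0.0144). Eif3e had mRNA at 105 and 120.1 FPKM in Het and 105 and 126 FPKM in KO (interaction 5.54 ± 1.03 SE, adjusted p = 0.0431). Psma7 had mRNA at 1154 and 1203 FPKM in Het and 1084 and 1251 FPKM in KO (interaction 3.96 ± 0.56 SE, adjusted p = 0.0178, 0.0558 with the block, which ends the call). Psma7 message was thus abundant in both genotypes, and its mRNA groups overlapped. Nrbf2, an autophagy factor, had mRNA at 43.3 and 30.1 FPKM in Het and 43.4 and 37.4 FPKM in KO, and footprints at 0 in Het and 58.8, 26.9 and 65.8 FPKM in KO (adjusted p = 0.0152).

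In others of the 63 the mRNA was lower in KO in each library, without passing the test. Atp6v1a, the catalytic subunit of the V-ATPase, had mRNA at 48.4 and 32.1 FPKM in Het and 23.7 and 15.3 FPKM in KO (adjusted p = 0.0912), while its footprints rose from 0.764, 0 and 1.96 FPKM to 64.4, 71.4 and 64.8 FPKM (interaction 6.30 ± 0.75 SE, adjusted p = 0.0144). Ccnl1, a cyclin of RNA splicing, had mRNA at 79.7 and 65.4 FPKM in Het and 43.5 and 33.7 FPKM in KO and footprints at 8.29, 5.43 and 2.32 FPKM in Het and 128, 242 and 144 FPKM in KO (interaction 5.72 ± 0.71 SE, adjusted p = 0.0144). Neither pair of mRNA groups overlapped. Satb1, a chromatin organizer, had mRNA at 44.5 and 38.2 FPKM in Het and 27.3 and 20.1 FPKM in KO and footprints at 8.17, 2.44 and 0 FPKM in Het and 128, 174 and 113 FPKM in KO (interaction adjusted p = 0.0418, 0.0603 with the block, which ends the call). Timeless, a replication fork factor, had mRNA at 49.5 and 36.0 FPKM in Het and 26.3 and 24.0 FPKM in KO and footprints at 2.60, 0 and 0 FPKM in Het and 36.4, 66.7 and 34.3 FPKM in KO (interaction adjusted p = 0.0307, 0.0615 with the block, which ends the call). Synj2bp, of the mitochondrial outer membrane, had mRNA near the filter, at 2.06 and 3.41 and 1.16 and 1.13 FPKM, and an interaction adjusted p of 0.0158. After median scaling the mRNA of Atp6v1a, Ccnl1, Satb1 and Timeless passed as falls (adjusted p = 0.0306, 0.0339, 0.0386 and 0.0411), and that of Synj2bp did not (0.0610).

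Of the 28 genes that fell in footprints 27 were tested in mRNA, where 0 fell as deposited (1 after median scaling) and 6 rose (22.2%, against 18.5% of all genes): Eif6, Trmt12, Uchl1, Nudc, Imp4 and Glrx. Nudc, a chaperone of the dynein pathway, had mRNA at 25.2 and 31.7 FPKM in Het and 205 and 277 FPKM in KO, and footprints at 116, 137 and 89.7 FPKM in Het and 38.3, 22.3 and 19.5 FPKM in KO (interaction -5.13 ± 0.56 SE, adjusted p = 0.0144). Uchl1 mRNA was at 455 and 241 FPKM in Het and 1143 and 995 FPKM in KO (interaction -3.68 ± 0.52 SE, adjusted p = 0.0179). Thus in both genes each KO library had more message and fewer footprints than each Het library. Eif6 mRNA was at 23.6 and 19.8 FPKM in Het and 75.7 and 96.9 FPKM in KO (interaction adjusted p = 0.0152, 0.0526 with the block). Trmt12 mRNA was at 1.81 and 2.10 FPKM in Het and 7.06 and 7.81 FPKM in KO (interaction adjusted p = 0.0193, 0.0598 with the block). Glrx, a glutaredoxin, had mRNA at 181 and 248 FPKM in Het and 470.3 and 660.5 FPKM in KO and footprints at 330.4, 406 and 372 FPKM in Het and 131, 79.4 and 127 FPKM in KO, a pair of changes with no overlap in either assay. Imp4, a factor of ribosome assembly, had mRNA at 15.0 and 15.9 FPKM in Het and 34.4 and 40.2 FPKM in KO and footprints at 48.7, 44.2 and 43.4 FPKM in Het and 6.8, 7.21 and 9.23 FPKM in KO. The footprint calls of Glrx and Imp4 ended with the block (adjusted p = 0.0527 and 0.0536), as that of Trmt12 did. After median scaling 3 of the 6 mRNA rises remained, those of Nudc, Eif6 and Trmt12.

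Of the 33 genes whose footprints fell relative to mRNA, 14 fell in footprints, 17 others rose in mRNA without a call in footprints, and 2, the kinase gene Map3k6 and the piRNA pathway gene Tdrd1 (named after their values were seen), were called in neither. Psmb7, a catalytic subunit of the proteasome, had mRNA at 2.16 and 1.83 FPKM in Het and 307 and 275 FPKM in KO, while its footprints were at 46.0, 11.8 and 15.4 FPKM in Het and 68.9, 41.0 and 34.5 FPKM in KO (interaction -5.47 ± 0.82 SE, adjusted p = 0.0218). The mRNA groups were far apart and the footprint groups overlapped. Glrx5, of iron-sulfur cluster assembly, had mRNA at 17.0 and 18.5 FPKM in Het and 103 and 148 FPKM in KO and footprints at 44.5, 97.1 and 25.4 FPKM in Het and 8.96, 6.33 and 6.08 FPKM in KO (interaction -5.34 ± 0.78 SE, adjusted p = 0.0200). Arg2 mRNA was at 6.58 and 6.10 FPKM in Het and 79.8 and 88.7 FPKM in KO (interaction adjusted p = 0.0169, 0.0525 with the block), and the groups did not overlap in either assay. Pdpn, a membrane mucin-like glycoprotein, had mRNA at 26.2 and 20.5 FPKM in Het and 107 and 97.1 FPKM in KO and footprints at 22.8, 26.9 and 58.7 FPKM in Het and 0, 5.85 and 0 FPKM in KO (interaction adjusted p = 0.0440, 0.0774 with the block). Cenpx mRNA, in contrast, was at 66.7 and 138 FPKM in Het and 49.1 and 142 FPKM in KO, with no order between the genotypes (interaction adjusted p = 0.0207).

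Counts of calls differed between the assays in several lists, a difference that was tested gene by gene only. For comparison, 18.9% of all genes rose in mRNA and 3.21% in footprints. In mRNA 51 of 76 respiratory chain genes rose (35 after median scaling) and 1 of 72 did in footprints, with medians of 1.65 and -0.30 on the log2 scale. Of the 72 genes tested for the interaction 1 fell relative to mRNA, Ndufa1 of complex I, named after its values were seen (interaction adjusted p = 0.0440), while the median interaction was -1.71 against 0.24 for all genes. Large ribosomal protein genes rose in 31 of 48 cases in mRNA (27 after median scaling) and in 0 of 48 in footprints, small ones in 22 of 31 (14 after median scaling) and 0 of 32, and no member passed for the interaction. Mitochondrial ribosomal genes rose in 37 of 72 cases in mRNA (21 after median scaling) and 4 of 69 in footprints, and proteasome genes in 24 of 39 (15 after median scaling) and 6 of 39. Deadenylases had the opposite order, a median of -0.19 in mRNA and 0.57 in footprints, but so did all genes (0.07 and 0.27). Their median interaction was 0.39, against 0.24 for all genes. For the interaction 1 of 18 passed, Cnot4 (adjusted p = 0.0431, 0.0603 with the block, which ends the call).

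**Figure D5:**
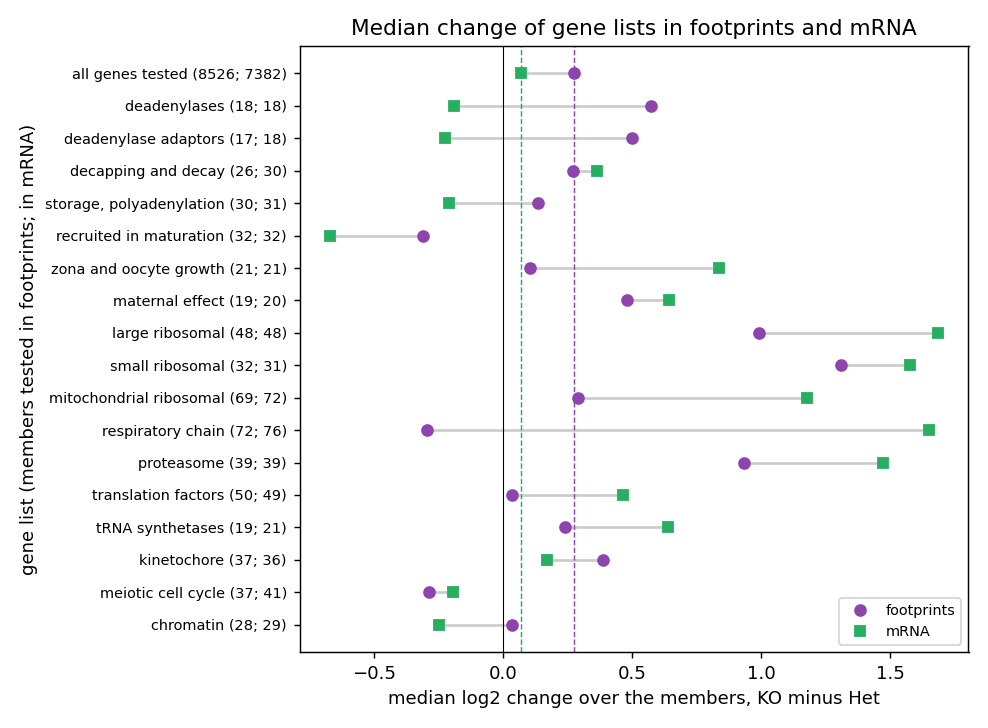
Median log2 change (KO minus Het, horizontal) over the tested members of 17 gene lists and over all genes, in footprints (purple circles) and mRNA (green squares), with the medians of all genes dashed (0.27 for 8526 genes in footprints, 0.07 for the 7382 of them tested in mRNA). The respiratory chain has the widest gap, 1.65 in mRNA and -0.30 in footprints.

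Footprints of single wild-type oocytes were set beside the called genes. These genes were chosen for Het MII footprints that were low (rises) or high (falls) relative to KO. Their wild-type MII levels are therefore not independent of that choice, and the medians below are a description only. They came from 18 full-grown oocytes (FGO) and 20 MII oocytes, each stage taken as 1 sample with no test, since the labels name no animals. The 274 genes that rose in Btg4 KO had a median log2 ratio of MII to FGO of -0.49, and 84 of them (30.7%) were higher in MII, where all 8526 genes had a median of 0 and 49.3% were higher in MII. The 28 genes that fell had a median of 0.39, and 18 of them (64.3%) were higher in MII. Paip2 averaged 506 FPKM over the FGO and 71.9 FPKM over the MII oocytes, Ccdc115 106 and 20.8 FPKM, and Cetn2 86.9 and 10.8 FPKM. These 3 thus had fewer footprints in wild-type MII than in FGO, and more in KO than in Het MII oocytes. Other genes that rose did not follow this: Pfdn4 went from 50.3 to 1069 FPKM, Dazl from 7.12 to 146 FPKM and Pabpn1l from 5.98 to 154 FPKM, all higher in wild-type MII and higher still in KO than in Het. Zbed3, which fell in KO, went from 141 to 3604 FPKM. Other falls went the other way: 6 of the 28 (21.4%) had a log2 ratio of MII to FGO below -1, against 24.6% of all genes. Among these 6, Uchl1 went from 2567 to 683 FPKM and Glrx from 363 to 162 FPKM. Levels of the single-oocyte libraries and of the Btg4 libraries were not compared with each other.

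Poly(A) tail lengths were deposited for few of these genes at MII and are given without a test (5 libraries, KO with 2). In FGO the genes that rose had a median tail of 49.1 nt (227 genes) and those that fell one of 59.8 nt (28 genes), where all tested genes had 53.3 nt (5288 genes). In the KO libraries at MII the order was the other way round: the genes that rose had 58.8 nt (47 genes) and 52.0 nt (73 genes), those that fell 31.9 nt (15 genes) and 24.4 nt (15 genes), and all tested genes 42.6 nt (815 genes) and 43.6 nt (1324 genes). The Het library held the same order as the KO libraries. There the genes that rose had 61.6 nt (24 genes) and those that fell 47.6 nt (12 genes), both below the 73.6 nt of all genes (580 genes). In the wild-type MII library they had 36.8 nt (8 genes) and 36.9 nt (5 genes), which are near equal, where all had 47.2 nt (224 genes). Different genes hold a value in each library, so these medians do not follow the same genes. In KO libraries 1 and 2, 36 of the 47 and 57 of the 73 genes that rose had a tail above the median of all genes, as did 3 of the 15 and 4 of the 15 genes that fell. In the Het library 8 of the 24 genes that rose and 2 of the 12 that fell did. Paip2 had 60.0 nt in FGO and 123 and 93.7 nt in the KO libraries. Pabpn1l had 34.5 nt in FGO, 64.1 nt in Het and 105 and 108 nt in KO. Among the falls, Uchl1 had 66.5 nt in FGO, 32.4 nt in Het and 24.5 and 24.4 nt in KO, and Nudc 51.6 nt in FGO and 19.7 and 19.8 nt in KO. Other called genes went against these medians. Zbed3, which fell, had 82.2 and 84.8 nt in KO, and Btg4 had 53.0 and 101 nt. Psmb1, which rose, had 36.2 and 30.2 nt in KO, and Rars had 27.0 nt in KO library 2.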

How the data were processed

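Footprints and mRNA were taken as FPKM, the unit in which the authors deposited them: 3 Het and 3 KO footprint libraries, 2 Het and 2 KO mRNA libraries, and single wild-type oocytes (18 FGO, 20 MII). The submitters' processing notes list STAR 2.5.3a, Bowtie2 2.2.2, Cufflinks 2.2.1, Trim Galore 0.4.2 and cutadapt 1.14, and both mm9 and hg19, without saying which step used which. Poly(A) tail lengths, deposited by the authors in nucleotides, come from full-length cDNA read on a PacBio Sequel II per the labels' protocols, and a tail of 0 was read as missing. How tails were called is not given. The authors' average columns, coordinates and sequences were not used.

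After 231 exact repeats among 20987 lines were dropped, 20756 genes remained. Relative depth is the most frequent ratio between libraries of low FPKM values, within 0.002 on the natural log scale. It is no read total, so no count model was used and no counting interval is given. For mRNA and tails the depth is unknown.

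limma 3.58.1 under R 4.3.3 compared KO with Het on log2(FPKM + 1) by lmFit and eBayes with a trend, two-sided, and p-values were adjusted by Benjamini and Hochberg with a threshold of 0.05. A gene entered a fit when its libraries there averaged 1 FPKM or more, and the interaction of assay and genotype when that held in each assay. The interaction fit takes 1 spread per gene for both assays. Single oocytes and tails were described without a test. Other steps used pandas 2.3.3, numpy 2.4.6 and matplotlib 3.10.9 in Python 3.11.15. The fits were tested on simulated data.

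Libraries of the 2 genotypes share the numbers 1 to 3. Same-numbered footprint libraries deviated from their group means together, with correlations across genes of 0.26, 0.42 and 0.16, so the numbers were taken to pair them. This pairing comes from the data, since the labels do not say what a number marks. The fit with the number as a block is given beside each call it ends.

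The comparison, the gene lists, the tests and the alternatives were chosen with earlier results of these data known. Named genes are Btg4, the 15 largest rises and 15 largest falls in footprints among called genes whose groups do not overlap, up to 4 called members of each list in each direction (or the member with the smallest p), any deadenylase or adaptor gene, the 10 genes with the largest summed change in both assays, up to 10 called in opposite directions, the 10 largest interactions in each direction, and the 5 called genes with the highest KO level. Not every gene the rule allows is described, and some are not reported here. Alternatives were another pseudocount, no filter or a stricter one, median scaling, quantile normalization, library or assay weights, no trend, the block, and leaving out each library.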

Additional observations from a re-analysis of the deposited data

How the results depend on the processing

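No call of a named gene reversed under the alternatives run. Among changes that were not called some did. The mRNA log2 change of Cnot3 went from 0.15 to -0.31 under median scaling, and that of Fndc3a from 0.42 to -0.02. Medians reversed as well: under median scaling that of all genes moved from 0.27 to -0.10 in footprints and from 0.14 to -0.22 in mRNA, and those of the storage (0.14 to -0.34), maternal effect (0.48 to -0.02), mitochondrial ribosomal (0.29 to -0.08), tRNA synthetase (0.24 to -0.24), kinetochore (0.39 to -0.06), decapping (0.27 to -0.15), translation factor (0.03 to -0.42) and chromatin (0.03 to -0.33) lists turned negative. Footprint rises (274) numbered 177 with a pseudocount of 0.1 FPKM, 145 with no filter on low values, 81 with median scaling and 149 with quantile normalization. Footprint falls (28) numbered 12 with no filter, 18 with median scaling and 45 with library weights. A mean of at least 5 FPKM, no trend and the replicate block kept both counts within 1.5 times. Leaving out 1 library gave 0 to 260 rises and 0 to 14 falls. Of the 274 rises 81 remained under median scaling, 148 under quantile normalization, 202 under the block, 176 with the lower pseudocount and 145 with no filter, and of the 28 falls 17, 22, 16, 22 and 12.

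In mRNA, 1677 rises became 555 with no filter, 1051 with median scaling and 1104 with quantile normalization, and 55 falls became 5, 735 and 698. With the replicate block, which pairs only 2 libraries a genotype (deviations correlated at 0.63), mRNA rises numbered 3033 and falls 1553. Leaving out 1 mRNA library gave 1139 to 1621 rises and 22 to 270 falls, with the lone library left in a genotype assumed to vary like the other pair. The interaction called 63 genes higher and 33 lower, 27 and 12 with no filter, 158 and 110 with weights by assay, and 27 and 22 with the replicate block. Leaving out 1 library gave 0 to 156 higher and 0 to 47 lower.

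Of the 76 named footprint calls 65 held under the replicate block, 44 under median scaling and 63 under quantile normalization. The calls the block ended are given in the report beside each gene described there. The cause of these differences was not tested. Lists of fewer calls after leaving out a library come with 1 sample fewer in a group. Levels near 1 FPKM limit the low genes, since relative depth differed between libraries and read totals are not known.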

Other observations

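Some genes followed the library number rather than the genotype. Rpl41, of the large ribosomal subunit, stood at 47000.1 and 47690 FPKM in the Het and KO libraries numbered 1, against 0 and 1427 FPKM in Het libraries 2 and 3 and 1422 and 683 FPKM in KO libraries 2 and 3. Obox3, an oocyte-specific homeobox gene, stood at 718 and 538 FPKM in Het libraries 1 and 3 and at 458 and 463 FPKM in KO libraries 1 and 3, and at 0 in both libraries numbered 2. The H3.3 gene H3f3a was at 0 in both libraries numbered 2 and above 60 FPKM in the other 4. Oog1, an oocyte gene, was likewise at 0 in both libraries numbered 2 and at 374 FPKM or more elsewhere. These genes were picked after their values were seen and none is a call.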
